A study of Mus musculus with 2 samples.

Results

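The G2 and mitosis genes are 44 genes whose products take a cell from the end of DNA replication through chromosome segregation to division. They were found by symbol among the 32285 genes of both count matrices, and all 44 were present. The rule names genes and uses no measured value, but the set was proposed with earlier results of these data known. RNA and surface proteins of single cells were read together (CITE-seq, 10x Genomics 5' kit) in LSK cells of mouse bone marrow, the lineage-negative fraction with Sca-1 and c-Kit on its surface, which contains the stem cells of the blood (haematopoietic stem cells, HSCs) and their multipotent progenitor offspring (MPPs). The mice, about 6 months old at the start, received deferoxamine, an iron chelator, at 50 mg/kg, or HBSS as vehicle, on 7 days in a row, with a fresh course every 4 weeks over 13 months. Each treatment was represented by 1 pool of sorted cells marked with its own hashtag antibody, and both pools were mixed and loaded together, so that the RNA library and the antibody-tag library each hold cells of both. How many mice fed each pool, and their strain, is not given in the sources used here. No difference was therefore tested across animals, and every interval given is a 95% interval that covers counting error only.

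Mitosis is entered when Cdk1, bound to cyclin A or cyclin B, is switched on, and is left when the anaphase-promoting complex marks the cyclins and securin for destruction. Between these points chromosomes are condensed, spindle microtubules attach to kinetochores, a checkpoint holds anaphase back until attachment is complete, and a contractile ring then divides the cell. The genes are transcribed mainly from late S phase to mitosis and are held down in resting cells by the DREAM complex, which binds CHR elements in their promoters, while NF-Y binds CCAAT boxes. In the bone marrow most HSCs rest and MPPs divide more often.

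Because a shared promoter layout is what this set is known for, the letters of these elements were looked for in RefSeq promoter windows (GRCm38.p6), which run from 250 bases before to 50 bases after a gene's start. Windows were matched for 37 of the 44 members. Those not matched were Ccna2, Smc4, Tpx2, Pimreg, Aurkb, Dlgap5 and Cdc25c. The CHR letters TTTGAA or TTCGAA, on either strand, were present in the windows of 28 of the 37 members (75.7%), against 20.2% of 17492 protein-coding genes. CCAAT, on either strand, was present in 28 members (75.7%) against 42.3% of genes, and at least 2 copies in 21 members (56.8%) against 14.6%. Both kinds of letters stood in 24 members (64.9%) against 9.24% of genes. The E2F core GGCGGGAA was found in 0 of the 37 windows and in 3.28% of genes. TTCGAA reads the same on both strands and was counted once, and neighbouring CCAAT and CHR letters can share bases. A match is a description of the letters and not a binding site, and these shares were not tested.

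Within the 120 bases before the start, 11 of the 37 members (29.7%) held both CHR letters and CCAAT, against 2.25% of genes. The 7 stretches printed here show this layout in 5 members with many UMIs, and its absence in Ccnb2 and Birc5, which also have many UMIs. They are printed on the transcribed gene's own strand, 5′ to 3′, and end at the base before the start that the promoter table uses. For Top2a and Bub3 that start lies inside the outermost bounds of the RefSeq gene. Capitals mark the CHR letters and CCAAT, each on either strand. Top2a lies at chr11:99024190-99024309, minus strand, Cdk1 at chr10:69352913-69353032, minus strand, Ube2c at chr2:164769809-164769928, plus strand and Cks1b at chr3:89418292-89418411, minus strand. Bub3 lies at chr7:131560250-131560369, plus strand, Ccnb2 at chr9:70421555-70421674, minus strand and Birc5 at chr11:117849117-117849236, plus strand.
Top2a: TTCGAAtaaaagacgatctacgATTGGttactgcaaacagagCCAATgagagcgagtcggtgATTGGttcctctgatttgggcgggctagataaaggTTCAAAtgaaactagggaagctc
Cdk1: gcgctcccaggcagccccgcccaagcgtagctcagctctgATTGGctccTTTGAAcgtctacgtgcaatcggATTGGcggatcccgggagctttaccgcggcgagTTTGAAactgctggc
Ube2c: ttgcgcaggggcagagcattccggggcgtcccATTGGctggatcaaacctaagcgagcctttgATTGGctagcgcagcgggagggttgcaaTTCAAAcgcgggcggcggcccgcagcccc
Cks1b: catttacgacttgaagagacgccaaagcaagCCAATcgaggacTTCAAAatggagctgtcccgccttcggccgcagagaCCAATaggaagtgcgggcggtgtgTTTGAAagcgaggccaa
Bub3: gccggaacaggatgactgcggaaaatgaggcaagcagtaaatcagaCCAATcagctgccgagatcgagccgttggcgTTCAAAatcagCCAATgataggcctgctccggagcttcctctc
Ccnb2: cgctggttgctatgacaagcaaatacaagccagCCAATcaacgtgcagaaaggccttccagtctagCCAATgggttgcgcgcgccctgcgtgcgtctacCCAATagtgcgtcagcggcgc
Birc5: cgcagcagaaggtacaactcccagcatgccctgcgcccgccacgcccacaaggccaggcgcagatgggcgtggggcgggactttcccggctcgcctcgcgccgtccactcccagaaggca
In Top2a, Cdk1, Ube2c, Cks1b and Bub3 both kinds of letters were present. Ccnb2 held 3 copies of CCAAT and no CHR letters in this stretch, although its whole window held CHR letters. Birc5 held neither kind of letters, in the stretch or in its window. Bub3 has 2 starts in the table, and the stretch of the first is printed.

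Of 4026 barcodes in the control pool and 4037 in the chelator pool, 3969 and 3998 cells passed the filter (at least 500 genes and under 10% mitochondrial UMIs). They carried 63240358 and 66508812 gene UMIs (unique molecular identifiers, 1 per captured RNA molecule), with medians of 13705 and 14455.5 per cell. No barcode occurred in both matrices, and the tag expected for the pool outnumbered the other hashtag in 4025 control barcodes and in all 4037 of the chelator pool. Each matrix holds 1 hashtagged pool of the mixed loading, so these counts describe that split and are no independent check of it. RNA of the sort marker genes was present, Kit at 291.8 and 299.6 CPM (counts per 1000000 gene UMIs) and Ly6a, the Sca-1 gene, at 152.1 and 138.3 CPM. Both pools held cells of both sexes, but Xist-positive cells were 42.1% of the control cells whose sex could be read and 26.1% of those in the chelator pool. The main differences between the pools in summed levels and shares of cells are therefore accompanied by values for Xist-positive and Y-positive cells. The latter have Y-linked transcripts. Gate values of single genes take all cells together unless a sex is named. Cells with a sex call were 1417 Xist-positive and 1952 Y-positive in the control pool, and 897 and 2542 in the chelator pool. The remaining cells are in neither group.

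The 44 genes summed to 201706 UMIs in the control pool and 226493 in the chelator pool, 0.319% and 0.341% of all gene UMIs. They were concentrated in a minority of cells. After each cell was thinned at random to 5000 UMIs, a depth that 159 control and 138 chelator cells did not reach, the median cell held 3 member UMIs in either pool, and the richest held 146 and 110. Cells with 10 or more, called member-rich, numbered 919 of 3810 control cells (24.1%, 95% Clopper-Pearson interval 22.8 to 25.5) and 1037 of 3860 chelator cells (26.9%, 25.5 to 28.3), and held 82% and 84.4% of the member UMIs. Cells with 2 or fewer, called member-poor, made up 43.4% and 41.8%. Member-rich is a range of a summed count and not a cell type: 4.65% and 4.3% of cells had 8 to 11 member UMIs. Before thinning, member-rich cells had about the same depth in both pools, medians of 24237 and 24601 UMIs, against 12024 and 12455 in member-poor cells.

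Cells were placed in gates by 3 surface tags, each cut where a 2-component mixture of its centred log ratio changed component. The HSC gate is CD150-positive without CD48 and CD135, MPP1 lacks all 3, MPP2 is CD48- and CD150-positive, MPP3 is CD48-positive alone, and MPP4 is CD135-positive without CD150. The cuts are soft, since 33.2% of control and 33.7% of chelator cells lay within 0.25 of one, and the CD135 tag had a median of 3 UMIs per cell. The HSC gate held 29.0% of control and 32.6% of chelator cells, and MPP4 39.0% and 33.5%.

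Summed over the members, the level in the control pool was 2032.5 CPM in the HSC gate, 1947.1 in MPP1, 5130.6 in MPP2, 3794.8 in MPP3 and 3917.1 in MPP4. In the chelator pool it was 1767.8, 2958.4, 5798.0, 4536.3 and 4102.5 CPM in the same order. MPP2 had the highest level in both pools, and the lowest was in MPP1 in the control pool and in the HSC gate in the chelator pool. Levels are compared across gates and pools and not between genes, whose UMI totals served to choose and order them. The MPP gates together stood 1.79-fold above the HSC gate in the control pool (1.77 to 1.81) and 2.33-fold in the chelator pool (2.30 to 2.35). MPP1 stood at 0.958 of the HSC gate (0.939 to 0.977) in the control pool and 1.67-fold above it (1.65 to 1.70) in the chelator pool. The direction of the control value depended on the gate cuts: from a log2 fold of -0.0619 it turned to 0.0157 when cells near a cut were left out and to 0.0704 when the cuts were set in each pool. Counted by gene, 39 of 44 members were more than 2-fold above the HSC gate in MPP2 in both pools, where 4.24% of all genes with at least 200 UMIs were. In MPP4 this held for 20 members (5.35% of genes), in MPP3 for 10 (5.17%) and in MPP1 for 0 (2.3%). Smc4, Hjurp, Knstrn, Bub3 and Kif23 were the 5 members below 2-fold in MPP2 in at least 1 pool. The members share the same member-rich cells, so these counts are not independent of each other.

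**Figure D1:**
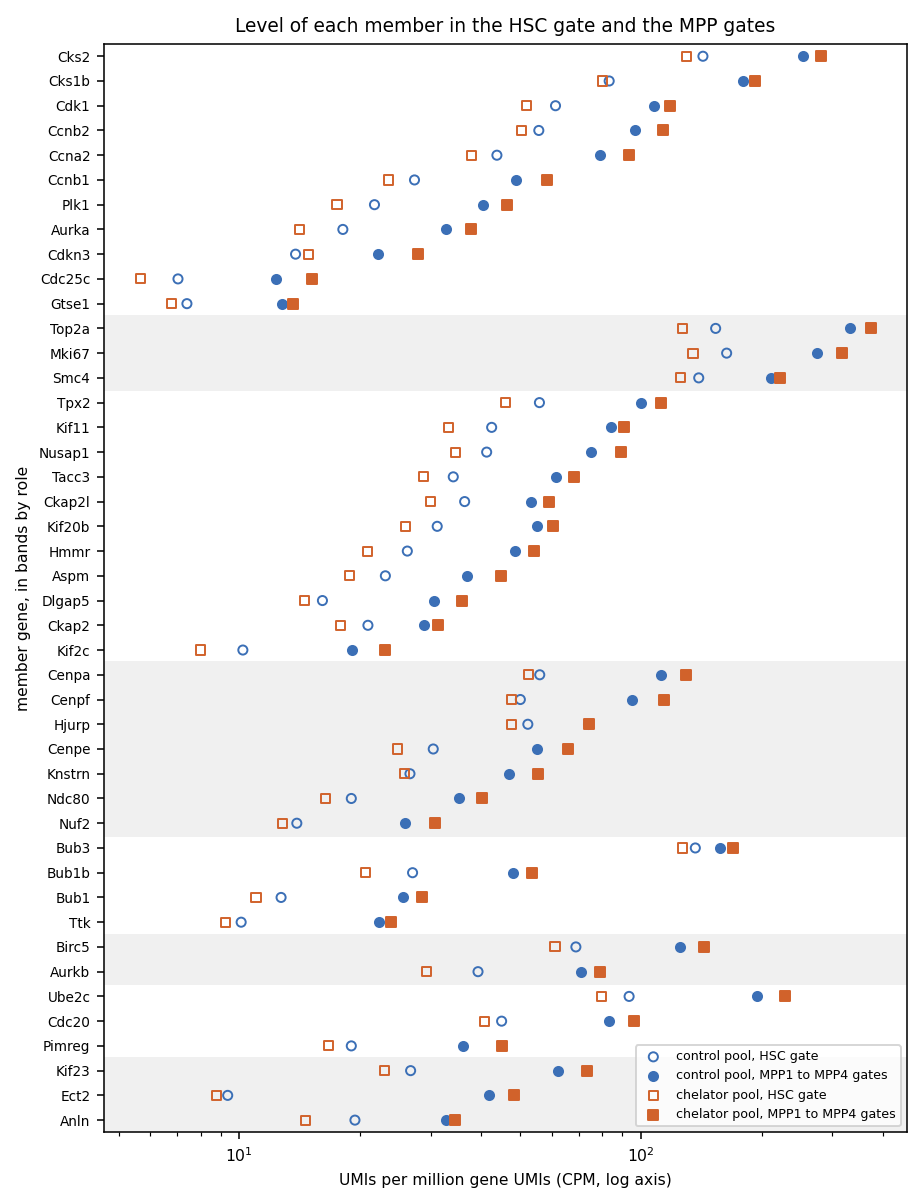
Level of each of the 44 members (rows, in bands by role and by UMIs within a band) in CPM on a log axis, in the HSC gate (open symbols) and in the 4 MPP gates together (filled), for the control pool (circles) and the chelator pool (squares). Filled symbols lie to the right of open ones for every member, and for most members the chelator pool has the lower open and the higher filled symbol.

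The share of member-rich cells was lowest in the HSC gate and highest in MPP2 in both pools. In the control pool it was 11.5% in the HSC gate (128 of 1114 cells, 9.68 to 13.5), 12.4% in MPP1 (9.66 to 15.6), 30.6% in MPP4 (28.3 to 33.0), 41.1% in MPP3 (36.6 to 45.8) and 52.2% in MPP2 (41.4 to 62.9). In the chelator pool it was 9.98% in the HSC gate (126 of 1263 cells, 8.38 to 11.8), 19.4% in MPP1 (16.1 to 23.1), 34.7% in MPP4 (32.1 to 37.3), 48.9% in MPP3 (44.7 to 53.1) and 58.3% in MPP2 (47.8 to 68.3). In the control pool the intervals of the HSC gate and MPP1 overlapped, as did those of MPP3 and MPP2. In the chelator pool the intervals of the HSC gate, MPP1, MPP4 and MPP3 did not overlap, and those of MPP3 and MPP2 did. MPP2 was small, with 91 control and 99 chelator cells, hence its wide intervals. Among the member-rich cells of the HSC gate the median was 34 member UMIs of 5000 in the control and 34.5 in the chelator pool, close to the 32 and 33 over all member-rich cells.

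**Figure D2:**
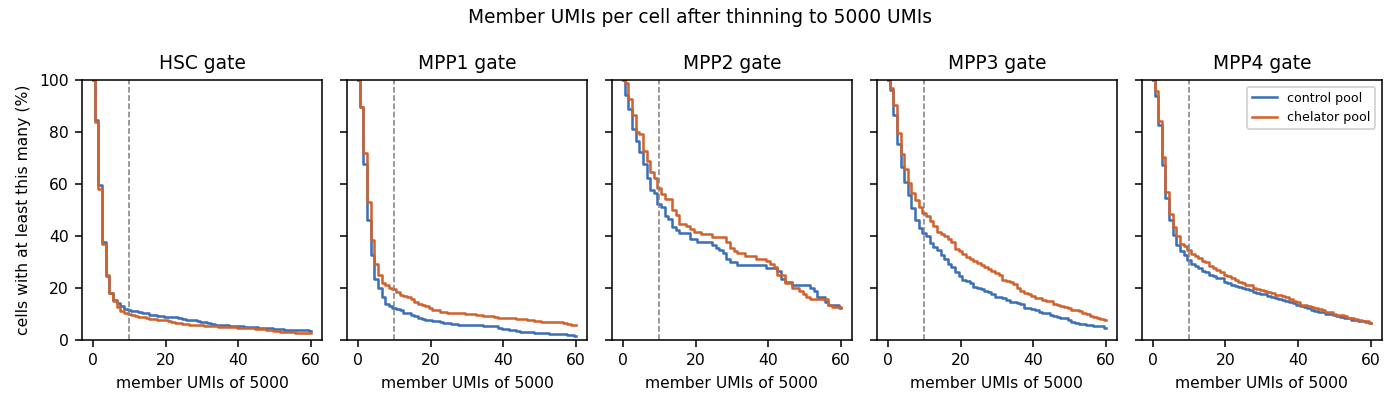
Percent of cells (vertical axis) with at least the number of member UMIs on the horizontal axis after thinning to 5000 UMIs, in each of the 5 gates, for the control and chelator pools; the dashed line marks 10 UMIs. In the HSC gate the curves lie close together, at 11.5% and 9.98% at the dashed line, and there the chelator curve lies above the control curve in all 4 MPP gates.

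Over all LSK cells the summed level was 3189.5 CPM in the control and 3405.5 CPM in the chelator pool, a log2 ratio, chelator over control, of 0.0945 (0.0858 to 0.103). Of the 44 members 42 were above 0, with a median log2 ratio of 0.104 against -0.0015 over all genes with at least 50 UMIs. More than 1.1-fold higher were 17 members, where 8.1% of genes with at least 200 UMIs were, and more than 1.1-fold lower were 0, where 7.5% of genes were. The intervals of 14 members, Cdk1 among them, included 0. The share of member-rich cells was 2.74 points higher (0.776 to 4.71). The direction of the sum differed between the sexes. In Xist-positive cells the sum was 3358.0 CPM in the control and 3069.9 CPM in the chelator pool, a log2 ratio of -0.129 (-0.146 to -0.113). There 40 of 44 members were below 0, where 6389 of 12796 genes with at least 50 UMIs were. In Y-positive cells the sum was 3372.2 and 3695.4 CPM, a log2 ratio of 0.132 (0.121 to 0.143). Above 0 were 43 members, where 6174 of 13821 genes were. With both sexes weighted equally the log2 ratio was 0.00132, from cells with a sex call alone. In the control pool the sums of both sexes lay above the 3189.5 CPM of all cells, which include those without a sex call. The difference between the sexes was not tested, since each sex has 1 pool per treatment. The share of member-rich cells differed by -1.5 points (-5.3 to 2.36) in Xist-positive and 5.01 points (2.38 to 7.62) in Y-positive cells. The HSC gate held 23.6% of control and 33.1% of chelator Xist-positive cells, and 31.0% and 31.9% of Y-positive cells. MPP4 held 41.7% and 29.8% of Xist-positive and 40.0% and 36.3% of Y-positive cells. The part of gate make-up in the sums was not tested.

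Within gates the direction differed between the HSC gate and the MPP gates. In the HSC gate the log2 ratio of the sum was -0.201 (-0.223 to -0.179), 43 of 44 members were below 0 and their median was -0.218, against -0.00598 over all genes. More than 1.1-fold lower were 34 members (13.1% of genes), and more than 1.1-fold higher were 0 (9.91%). The intervals of 16 members included 0 in this gate. In the MPP gates together the log2 ratio was 0.176 (0.166 to 0.186), all 44 members were above 0 and their median was 0.202, against -0.00462 over all genes. More than 1.1-fold higher were 33 members (8.33% of genes), and more than 1.1-fold lower were 0 (9.88%). By gate the log2 ratio was 0.604 (0.572 to 0.635) in MPP1, 0.176 (0.140 to 0.213) in MPP2, 0.257 (0.238 to 0.277) in MPP3 and 0.0667 (0.0541 to 0.0794) in MPP4. MPP1 thus had the largest of the 4 ratios. The MPP2 ratio, from the fewest cells, was 0.00714 in Y-positive cells, 0.0928 after thinning to 5000 UMIs, 0.356 without cells near a cut and 0.494 with the mixture run to convergence, so no order of MPP2, MPP3 and MPP4 is read from these values.

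Counted in cells, the HSC-gate difference was within counting error and the MPP difference was larger than it. The share of member-rich cells in the HSC gate was 1.51 points lower in the chelator pool, with an interval that included 0 (-4.09 to 1.03). It was 29.7% in the control and 35.7% in the chelator pool over the MPP gates, 5.96 points higher (3.34 to 8.58). The difference was 6.99 points in MPP1 (2.36 to 11.6), 7.81 in MPP3 (1.56 to 14.0) and 4.06 in MPP4 (0.514 to 7.60), while that in MPP2, 6.11 points (-8.85 to 20.8), included 0. The intervals of UMI sums treat each UMI as independent and so do not cover the sampling of cells, of which 128 and 126 were member-rich in the HSC gate.

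Within each sex the HSC-gate sum was lower and the MPP sum higher in the chelator pool, by unlike amounts. In Xist-positive cells the HSC-gate sum was 2146.9 CPM in the control and 1360.4 CPM in the chelator pool, a log2 ratio of -0.658, from 44 and 27 member-rich cells. In Y-positive cells it was 2184.1 and 2065.0 CPM, a log2 ratio of -0.0809, from 68 and 90 member-rich cells. The share of member-rich cells in the HSC gate was 13.5% and 9.18% among Xist-positive cells (-4.27 points, -9.45 to 0.97) and 11.4% and 11.3% among Y-positive cells (-0.0838 points, -3.61 to 3.34). Both intervals included 0. Over the MPP gates the log2 ratio of the sum was 0.044 (0.0263 to 0.0617) in Xist-positive cells and 0.167 (0.154 to 0.179) in Y-positive cells, and the share of member-rich cells was 3.64 points (-1.41 to 8.75) and 7.45 points (3.96 to 10.9) higher. In MPP1 the log2 ratio was 0.481 and 0.657, the largest of the 4 MPP gates in either sex. In MPP4 it was -0.0566 and 0.0312, on either side of 0. The share of member-rich MPP4 cells was 1.56 points (-5.39 to 8.71) and 4.81 points (0.171 to 9.4) higher in the chelator pool. Single members were less uniform in Y-positive HSC-gate cells and in Xist-positive MPP cells than over all cells, although most kept the direction. Above 0 in Y-positive HSC-gate cells were, among others, Cdc25c (0.157), Cenpf (0.124) and Birc5 (0.0374). Below 0 in Xist-positive MPP cells were, among others, Cdk1 (-0.0523), Top2a (-0.0143) and Tpx2 (-0.0549). No interval was computed for these ratios.

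**Figure D3:**
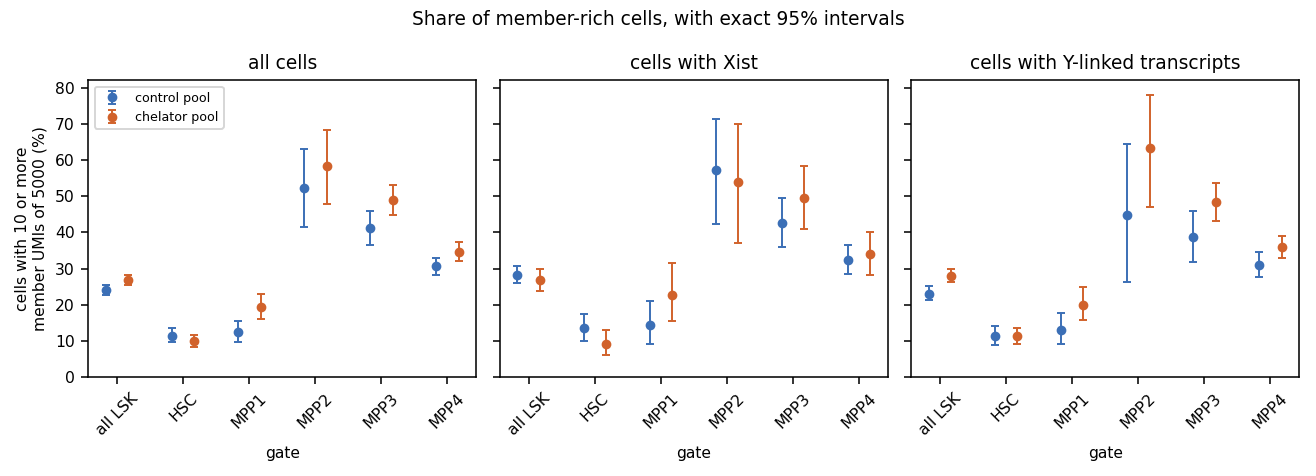
Percent of cells with 10 or more member UMIs of 5000 (vertical axis, exact 95% intervals) over all LSK cells and in each gate, for the control and chelator pools, in all cells and in cells of each sex. The HSC gate is between 9.18% and 13.5% throughout, and the chelator point lies above the control point in MPP1, MPP3 and MPP4 in all 3 panels.

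The 11 cyclins, kinases and their partners were all above 0 over all LSK cells (median log2 ratio 0.107), and 10 of 11 were below 0 in the HSC gate. Cdk1, the kinase that starts mitosis (RefSeq gene, GRCm38.p6, chromosome 10, 69335146 to 69352912, as for the other genes placed here), was at 94.9 CPM in the control pool and 98.0 CPM in the chelator pool, with a log2 ratio of 0.0474 (-0.00337 to 0.0983). From the HSC gate through MPP1 to MPP4 it was at 61.3, 55.2, 144.8, 120.4 and 114.2 CPM in the control pool and 51.8, 80.8, 177.5, 135.3 and 116.0 CPM in the chelator pool. It was thus lowest in the HSC gate or MPP1 and highest in MPP2 in both pools, and its ratio was -0.244 (-0.372 to -0.116) in the HSC gate and 0.135 (0.0783 to 0.191) in the MPP gates. Ccnb2, a B-type cyclin that activates Cdk1, was at 55.7, 47.8, 151.0, 88.8 and 108.6 CPM in the control pool and 50.5, 96.0, 159.2, 126.2 and 108.0 CPM in the chelator pool in the same gates. Its MPP1 ratio, 1.01 (0.815 to 1.2), was above its ratio of 0.225 (0.167 to 0.284) over the MPP gates together. Cks2 and Cks1b, small subunits that bind Cdk1 and Cdk2, had 14158 and 9659 UMIs in the control pool. Cks2 was at 142.8, 150.8, 394.5, 276.2 and 260.6 CPM in the control pool and 129.8, 211.8, 459.3, 311.4 and 271.5 CPM in the chelator pool. Cks1b was at 83.4, 105.5, 227.7, 206.0 and 185.1 CPM in the control pool and 80.2, 135.9, 249.9, 214.8 and 192.4 CPM in the chelator pool, the smallest HSC-gate difference among the 12 members with the most UMIs, -0.057 (-0.163 to 0.0492). Cdkn3, a phosphatase that acts on Cdk proteins, had the highest ratio of all members, 19.9 CPM in the control pool and 23.9 CPM in the chelator pool and 0.266 (0.159 to 0.374). It was the 1 member above 0 in the HSC gate, 0.118 (-0.139 to 0.376), an interval that included 0, and was at 13.8, 11, 41.5, 20 and 24.5 CPM in the control pool and 14.9, 23.4, 43.2, 27.8 and 27.6 CPM in the chelator pool. Cdc25c, the phosphatase that removes the inhibiting phosphates of Cdk1, was at 7.03, 3.91, 19.5, 12 and 14.1 CPM in the control pool and 5.67, 10.5, 24.4, 18.4 and 14.2 CPM in the chelator pool, with 685 and 822 UMIs in all and a ratio of 0.19 (0.0423 to 0.339). The remaining members of the group, Ccna2, Ccnb1, Plk1, Aurka and Gtse1, had ratios over all LSK cells from 0.0291 (Gtse1) to 0.164 (Ccnb1). In the HSC gate theirs ran from -0.355 (Aurka, a centrosome kinase) to -0.129 (Gtse1).

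Of the 3 genes of chromosome structure, Top2a and Mki67 held the most UMIs of all members. Top2a, the topoisomerase that untangles sister chromatids (chromosome 11, 98992947 to 99024199), was at 282.0 CPM in the control pool and 298.5 CPM in the chelator pool, 0.0821 (0.0529 to 0.111). In the 5 gates it was at 153.6, 164.1, 396.4, 367.1 and 359.2 CPM in the control pool and 127.2, 218.4, 501.6, 421.0 and 386.2 CPM in the chelator pool. The values of MPP2, MPP3 and MPP4 were above all of those of the HSC gate and MPP1, and the ratio was -0.272 (-0.353 to -0.191) in the HSC gate and 0.17 (0.138 to 0.202) in the MPP gates. Mki67, the proliferation marker Ki-67 that coats mitotic chromosomes, was at 163.6, 132.8, 440.3, 301.8 and 289.0 CPM in the control pool and 134.9, 215.4, 476.3, 352.6 and 316.0 CPM in the chelator pool. Its ratio was -0.278 (-0.357 to -0.2) in the HSC gate, 0.208 (0.173 to 0.243) in the MPP gates and 0.101 (0.07 to 0.133) over all cells. Smc4, the condensin subunit, was flatter, at 139.4, 137.2, 252.5, 228.8 and 221.1 CPM in the control pool and 125.8, 177.4, 282.2, 242.3 and 220.5 CPM in the chelator pool. Its MPP level was 1.52-fold the HSC-gate level in the control and 1.77-fold in the chelator pool, and its ratio over all cells, 0.0217 (-0.0143 to 0.0576), included 0.

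The 11 spindle genes were all above 0 over all LSK cells (median log2 ratio 0.0693) and all below 0 in the HSC gate (median -0.281). Tpx2, which brings Aurora A to the spindle and activates it, was at 55.9, 50.8, 142.9, 101.5 and 109.2 CPM in the control pool and 46.0, 76.2, 154.8, 125.1 and 113.1 CPM in the chelator pool, with a ratio of 0.0777 (0.0251 to 0.13) over all cells and -0.281 (-0.416 to -0.146) in the HSC gate. Kif11, the motor that pushes the spindle poles apart, had 1 of the 4 lowest ratios, 0.0192 (-0.0393 to 0.0777), which included 0. It was at 42.5, 33.6, 118.6, 88.8 and 93.1 CPM in the control pool and 33.2, 63.5, 118.2, 96.4 and 93.6 CPM in the chelator pool, and its ratio was -0.358 (-0.516 to -0.201) in the HSC gate and 0.108 (0.0441 to 0.173) in the MPP gates. Ckap2, a microtubule-binding protein, differed least between the HSC gate and the MPP gates among the spindle genes, 1.38-fold in the control and 1.75-fold in the chelator pool. It was at 20.9, 17.2, 41.9, 30.5 and 30.4 CPM in the control pool and 17.9, 26.4, 39.3, 34.1 and 30.6 CPM in the chelator pool. Aspm, which focuses spindle poles, was at 32.7 CPM in the control pool and 37.0 CPM in the chelator pool, the highest ratio of the group (log2 ratio 0.177, 0.092 to 0.262). Nusap1, Kif2c and Dlgap5 had ratios of 0.151, 0.15 and 0.139, and Tacc3, Hmmr, Ckap2l and Kif20b ratios between 0.0367 and 0.0693.

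Among the 7 centromere and kinetochore genes 6 were above 0 over all LSK cells, and all 7 were below 0 in the HSC gate by a median of -0.111, the smallest median of the role groups. Cenpa, the histone H3 variant that marks centromeres, was at 56.0, 68.1, 200.6, 102.0 and 120.9 CPM in the control pool and 52.4, 102.2, 208.1, 138.0 and 126.2 CPM in the chelator pool. Its ratio was -0.0962 (-0.227 to 0.0344) in the HSC gate, an interval that included 0, and 0.204 (0.15 to 0.259) in the MPP gates. Cenpf, a large kinetochore protein, had 1 of the 4 highest ratios, 81.8 CPM in the control pool and 93.7 CPM in the chelator pool (log2 ratio 0.197, 0.143 to 0.25). It was at 50.1, 42.3, 146.3, 91.2 and 106.1 CPM in the control pool and 47.7, 94.2, 183.6, 114.1 and 113.6 CPM in the chelator pool, and MPP1 held its largest difference, 1.16 (0.956 to 1.36). Hjurp, the chaperone that loads Cenpa, had 1 of the 4 lowest, at 67.5 CPM in the control pool and 66.5 CPM in the chelator pool (log2 ratio -0.0206, -0.0816 to 0.0404). It was at 52.3, 60.3, 86.7, 69.8 and 77.6 CPM in the control pool and 47.6, 68.2, 80.7, 80.3 and 72.9 CPM in the chelator pool, no more than 1.7-fold above the HSC gate in MPP2. Cenpa RNA, by comparison, was 3.58-fold and 3.97-fold above the HSC gate in MPP2. Cenpe, Knstrn, Ndc80 and Nuf2 had ratios of 0.147, 0.176, 0.107 and 0.175.

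The 4 spindle checkpoint genes had the smallest median ratio over all LSK cells, 0.0461. Bub3, which carries the checkpoint kinase Bub1 to kinetochores, was the flattest member of all. It was at 136.7, 127.2, 178.2, 154.4 and 164.3 CPM in the control pool and 127.2, 146.9, 208.9, 172.1 and 171.2 CPM in the chelator pool, 1.15-fold and 1.33-fold higher in the MPP gates than in the HSC gate. Its partners Bub1, Bub1b and the kinase Ttk differed more between these gates: Bub1 was at 12.7 and 11 CPM in the HSC gate of the control and chelator pools and 25.5 and 28.5 CPM in the MPP gates. Bub1b had a ratio of -0.388 (-0.588 to -0.189) in the HSC gate and 0.157 (0.0727 to 0.242) in the MPP gates. The 2 chromosomal passenger genes were both above 0 over all LSK cells and below 0 in the HSC gate. Birc5 (survivin) was at 68.9, 62.1, 171.5, 135.9 and 133.8 CPM in the control pool and 61.1, 102.2, 219.0, 169.7 and 137.1 CPM in the chelator pool, with a ratio of 0.127 (0.0806 to 0.174) over all cells. Aurkb, the kinase of the complex, had the lowest HSC-gate ratio of all 44 members, -0.425 (-0.59 to -0.259), at 39.3 and 29.3 CPM in the HSC gate of the control and chelator pools and 71.0 and 79.1 CPM in the MPP gates.

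The 3 genes of anaphase and mitotic exit were each more than 1.1-fold higher over all LSK cells. Ube2c, the ubiquitin-conjugating enzyme of the anaphase-promoting complex (chromosome 2, 164769929 to 164772902), was at 165.6 CPM in the control pool and 184.0 CPM in the chelator pool (log2 ratio 0.152, 0.115 to 0.19). It was at 93.5, 81.0, 320.7, 186.7 and 218.0 CPM in the control pool and 79.7, 149.8, 377.7, 236.9 and 233.4 CPM in the chelator pool, and so was highest in MPP2, where it stood 3.43-fold and 4.74-fold above the HSC gate. Its ratio was -0.23 (-0.333 to -0.127) in the HSC gate and 0.887 (0.739 to 1.04) in MPP1. Pimreg had the second highest ratio of all members, 0.23 (0.144 to 0.317), and was at 19.0, 14.6, 56.7, 35.4 and 40.4 CPM in the control pool and 16.7, 30.8, 52.3, 50.5 and 46.1 CPM in the chelator pool. Cdc20, the activator of the complex, had a ratio of 0.147 (0.0891 to 0.204).

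Cytokinesis genes included both the steepest member and the lowest ratio. Ect2, the exchange factor that activates RhoA for the contractile ring, was at 9.35, 16.9, 30.0, 43.8 and 48.8 CPM in the control pool and 8.79, 26.0, 46.2, 58.3 and 50.4 CPM in the chelator pool. Its MPP level was 4.48-fold the HSC-gate level in the control and 5.49-fold in the chelator pool, above the next steepest, Kif23, a motor of the central spindle, at 2.33-fold and 3.2-fold. Kif23 was at 26.7, 29.5, 51.9, 55.2 and 74.6 CPM in the control pool and 23.0, 52.5, 69.8, 73.7 and 80.3 CPM in the chelator pool. In MPP2 Kif23 was lower than in MPP4 in both pools, as was Ect2, while 41 other members were higher in MPP2 than in MPP4 in both. Knstrn was the exception, in the control pool alone. Anln, the ring scaffold anillin, was at 29.1 CPM in the control pool and 28.4 CPM in the chelator pool, the lowest ratio of all (log2 ratio -0.0332, -0.127 to 0.0602), an interval that included 0. In the 5 gates it was at 19.4, 15.6, 47.2, 38.3 and 34.3 CPM in the control pool and 14.6, 22.6, 39.7, 39.9 and 35.0 CPM in the chelator pool, with -0.407 (-0.644 to -0.171) in the HSC gate.

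**Figure D4:**
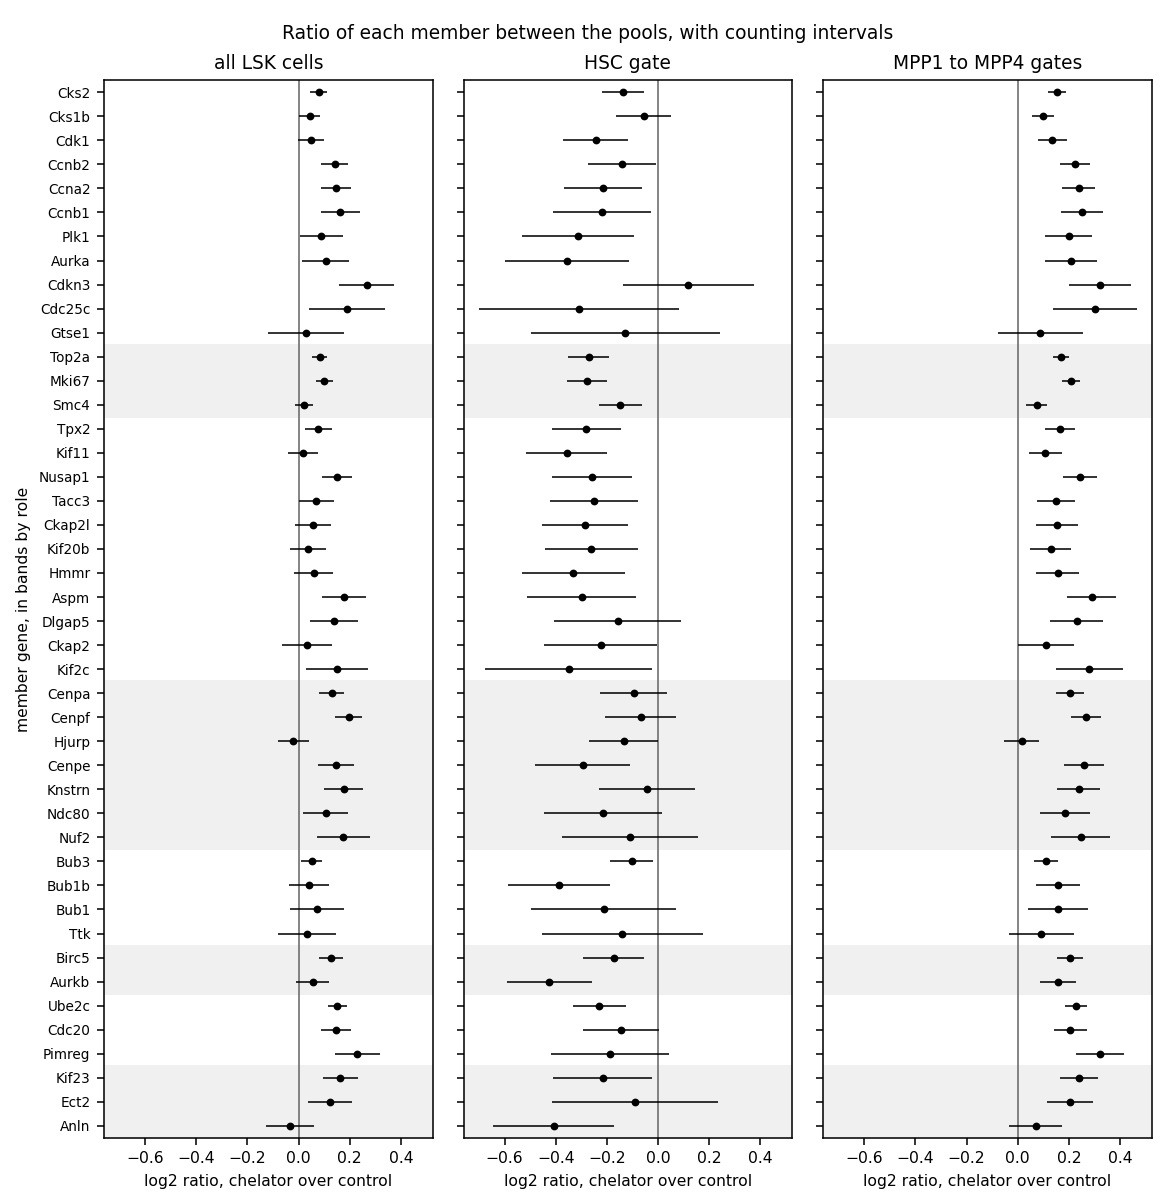
Log2 ratio, chelator over control, of each member (rows, in bands by role) over all LSK cells, in the HSC gate and in the MPP gates together, with exact conditional binomial 95% intervals that cover counting error only. In the HSC gate 43 of 44 points lie left of 0, and in the MPP gates all 44 lie right of it. The points take all cells together, and some members lie on the other side of 0 within a sex.

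Members differed in how much of their RNA lay in member-rich cells. For each member, cells were called rich or poor by the sum of the other 43, and the member's mean per 5000 UMIs was compared between them. Members with 3 or fewer UMIs in poor cells were given no fold, so the folds cover the other members and do not rank all 44. Ube2c was 489.6-fold higher in rich than in poor control cells and 258.6-fold in chelator cells, and Birc5 405.6-fold and 297.0-fold. These folds are imprecise, since they rest on 7 and 14 poor-cell UMIs of Ube2c and 6 and 8 of Birc5. Mki67, with 33 and 49 poor-cell UMIs, was 161.4-fold and 104.4-fold higher in rich cells. At the other end stood Bub3 at 2.12-fold and 2.06-fold, Hjurp at 3.52-fold and 3.94-fold, Smc4 at 5.36-fold and 5.87-fold and Cks1b at 7.93-fold and 7.76-fold. The poor class, set by the other 43 members, was larger for Bub3 (1983 control cells) than for Ube2c (1654). It held 40.8% of the thinned Bub3 UMIs of the control pool, and 0.365% of those of Ube2c. Bub3 RNA was thus common in cells with little RNA of the other members, and Ube2c RNA was rare there. Over the 3810 control and 3860 chelator cells, which share a library and a depth of 5000 UMIs, the Pearson correlation of a member with the sum of the others (log scale) ranged from 0.268 and 0.285 for Bub3 to 0.773 and 0.777 for Mki67.

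Members also differed by the S-phase RNA of the member-rich cells that held them. Member-rich cells were divided at the median of their thinned UMIs over 45 S-phase genes, none of them a member, 26 in both pools, into 451 S-poor and 468 S-rich control cells and 505 and 532 chelator cells. S-poor cells held means of 52.5 and 53.5 member UMIs, S-rich cells 23.7 and 24.0, so that the sum was higher in S-poor cells by 1.15 and 1.16 (log2). Cenpa was higher in S-poor cells by 2.95 and 3.11 (log2), Ube2c by 2.94 and 3.21, and Cdkn3 by 2.77 and 3.13. Cdc20 was higher by 2.25 and 2.55, and Ccnb2 by 2.58 and 2.56. Ndc80 (0.149 and 0.41), Top2a (0.232 and 0.293), Aurkb (0.244 and 0.349) and Cks1b (0.298 and 0.263) were much closer to equal, as was Ttk in the chelator pool (0.595 and 0.239). Ccna2, the cyclin of S and G2 phase, lay between these 2 groups at 0.938 and 0.956, below the values of the sum. Since rich cells were chosen by the members' own sum and no position in the cycle was measured, these values are a description.

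**Figure D5:**
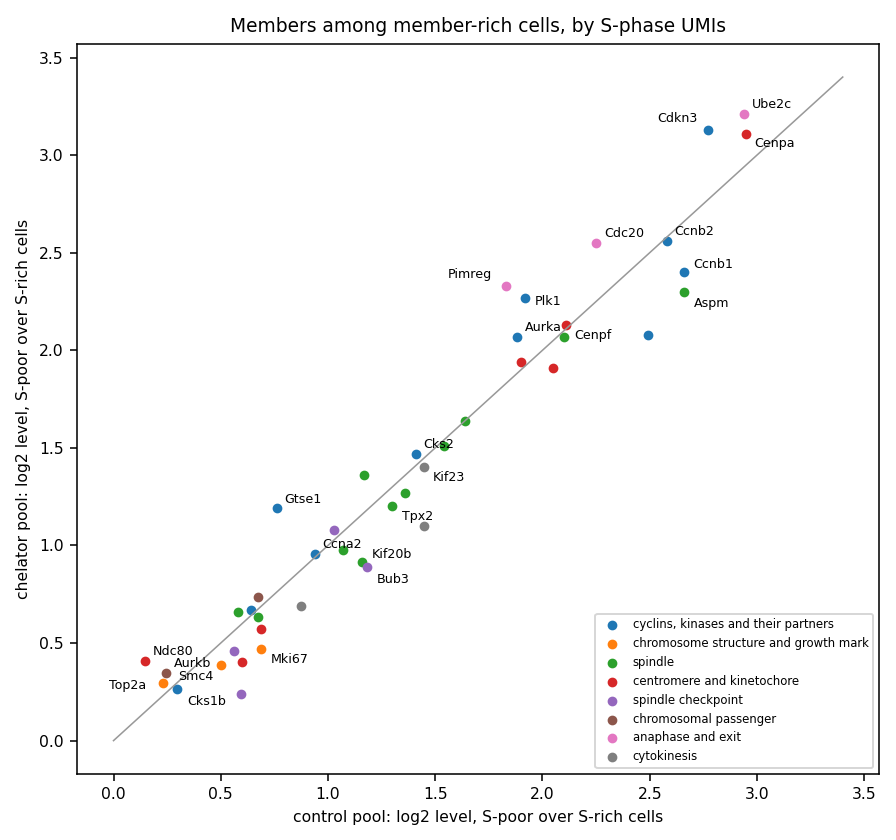
For each member, the log2 level in S-poor over S-rich member-rich cells, control pool on the horizontal and chelator pool on the vertical axis, coloured by role, with the line of equality. Top2a (0.232 and 0.293) is among the members near the lower end, and Ube2c (2.94 and 3.21) and Cenpa (2.95 and 3.11) are among those near the upper end.

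Surface proteins, which took no part in the choice of the genes, differed between member-rich and member-poor cells of the same gate. Sca-1 was lower on rich cells: in the HSC gate its median centred log ratio was -0.475 on rich and 0.621 on poor control cells, and -0.404 and 0.646 on chelator cells. CD71, the transferrin receptor, was higher, at -0.448 against -0.881 in the control and -0.685 against -1.15 in the chelator pool, although its medians were no more than 5 tag UMIs. CD117 (c-Kit) was higher as well, at 5.10 against 4.70 and 5.05 against 4.67. CD150 was lower on rich HSC-gate cells, at 2.49 against 3.18 and 2.63 against 3.05, and CD48 higher, at -0.437 against -0.970 and -0.449 against -0.948, though both tags are bounded by the gate. Rich cells of the HSC gate also carried more tag UMIs in all, medians of 5344.5 against 4312 and 5956 against 4743, whose part in these differences was not tested. In MPP4 the differences of Sca-1 and CD117 were smaller, -0.264 and -0.402 for Sca-1 and 0.0995 and 0.104 for CD117 in the control and chelator pools, and that of CD71 was 0.382 and 0.355. By centred log ratio, Sca-1 was lower and CD71 higher on rich cells in all 5 gates of both pools. Median Sca-1 tag UMIs, however, were equal on rich and poor cells in MPP4 of the control pool, at 5. They were also equal in MPP2, at 3, and MPP3, at 4, of the chelator pool. Rich MPP4 cells of the control pool carried more tag UMIs in all, 3013 against 2222.5, whose part was likewise not tested. MPP2 had 17 poor cells in the control and 13 in the chelator pool.

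Other genes of the pathway were read from lists of their own. Of 55 further mitosis genes 52 were above 0 over all LSK cells (median log2 ratio 0.0962). More than 1.1-fold higher were 4, a share near the 8.1% of all genes that were higher, and 0 were lower. In the HSC gate 49 of the 55 were below 0, where 6646 of 12778 genes were. Tuba1b, a tubulin with the most UMIs of that list, was at 1479.0 and 1562.3 CPM, log2 ratio 0.079 (0.0662 to 0.0918). Oip5 had the highest ratio, 0.22 (0.075 to 0.365), and Ccnf the lowest, -0.0819 (-0.171 to 0.00741). Of 24 regulators of these genes 17 were above 0 (median 0.022), with 2 more than 1.1-fold higher, again near the 8.1% of all genes, and 0 lower. Rbbp4, a subunit of DREAM, was at 229.1 and 232.1 CPM, log2 ratio 0.0189 (-0.0139 to 0.0517). E2f7, a repressor of cell cycle genes, had the highest ratio of the regulators, 0.185, and E2f5 the lowest, -0.105. Of 16 subunits and partners of the anaphase-promoting complex 9 were above 0 (median 0.0152) and 0 were past 1.1-fold in either direction. Among the members, its activator Cdc20 and its conjugating enzyme Ube2c were more than 1.1-fold higher. The checkpoint members Bub1b and Bub3, at 0.0411 and 0.0511, were not.

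S-phase genes were, by their median, not lower in the HSC gate of the chelator pool. Over all LSK cells 42 of 45 were above 0 with a median of 0.0611, 4 were more than 1.1-fold higher, near the 8.1% of all genes, and 0 lower. In the HSC gate 35 of 45 were above 0, where 6132 of 12778 genes were. Their median there was 0.053, where the members' median was -0.218. Their summed level there was 2369.1 CPM in the control and 2477.0 CPM in the chelator pool. Mcm6, a subunit of the replicative helicase with the most UMIs of this list, was at 267.3 and 272.7 CPM, log2 ratio 0.029 (-0.00128 to 0.0593), with 0.0789 in the HSC gate. Prim1 had the highest and Ccne1 the lowest ratio, 0.17 and -0.0516. In MPP1 the S-phase median was 0.107 and that of the members 0.698. Of 17 quiescence genes 16 had at least 50 UMIs and 7 of these were above 0, with a median of -0.0252. Egr1, an immediate-early gene that also answers cell handling, had the highest ratio of that list, 202.1 and 291.6 CPM, log2 ratio 0.529 (0.497 to 0.561), and Btg2, which slows the cell cycle, the lowest, -0.152.

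Marker genes of other cell types were summed in member-rich and member-poor cells without regard to gate. Not all lists differed the same way in both pools. The HSC gate held 128 of 919 rich and 695 of 1652 poor control cells. In the chelator pool it held 126 of 1037 rich and 797 of 1614 poor cells. The part of this gate mix in the differences between rich and poor cells was not tested. Summed markers of granulocyte-monocyte priming (7 genes) were at 1765.2 CPM in rich and 786.2 CPM in poor control cells and at 1976.9 and 826.9 CPM in chelator cells. The 8 erythroid genes were at 1416.7 and 768.3 CPM in control and 754.9 and 741.6 CPM in chelator cells, and over all cells at 972.3 CPM in the control and 726.8 CPM in the chelator pool. The 9 stem cell genes were lower in rich cells, 691.2 against 1891.4 CPM and 729.3 against 1944.5 CPM. The 7 megakaryocyte genes went opposite ways, 497.0 in rich against 448.2 CPM in poor control cells and 402.9 against 513.7 CPM in chelator cells. The 7 lymphoid-priming genes were at 568.0 against 544.5 CPM and 624.1 against 352.6 CPM, and the 7 T, NK or innate lymphoid genes at 245.2 against 136.6 CPM and 238.7 against 123.3 CPM. Rich against poor, the mast or basophil genes were at 83.5 and 31.4 CPM in control and 58.9 and 12 CPM in chelator cells, and the B cell genes at 30.9 and 51.6 CPM and 29.0 and 40.9 CPM. The macrophage genes were at 15.5 and 14.2 CPM and 18.1 and 11.6 CPM, and the endothelial or stromal genes at 1.43 and 7.92 CPM and 1.15 and 6.33 CPM. Over all cells the lymphoid-priming genes were at 534.1 and 492.5 CPM in the control and chelator pools, the megakaryocyte genes at 465.1 and 460.3 and the T, NK or innate lymphoid genes at 199.8 and 191.6. The 5 mast or basophil genes were at 57.4 and 38.3 CPM over the pools, the 5 B cell genes at 40.0 and 35.5, the 4 macrophage genes at 14.7 and 15.4 and the 5 endothelial or stromal genes at 4.16 and 3.22. Cd3e, which defines T cells, was at 0 in the control pool and no marker of any list was at 0 in both. The part of these lists in the differences between the pools was not tested.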

How the data were processed

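The authors deposited raw UMI counts per feature and cell in 2 matrices, 1 per pool, each with 32285 genes, 126 surface tags and 2 hashtags. Tools named in the submitters' processing notes are Cell Ranger 7.0.0 and Seurat 4.3.0, with build mm10, while the matrix headers name Cell Ranger 7.0.1. The annotation release, barcode filter and hashtag assignment were not given in the sources used here. Other deposited columns hold feature names and barcodes and were used as names.

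Cells needed 500 detected genes and a mitochondrial share under 10%, which left 3969 control and 3998 chelator cells. Doublets were left in with no caller run. CPM are UMIs per 1000000 gene UMIs. Tags were turned into centred log ratios, and CD135, CD48 and CD150 were cut by a 2-component mixture fitted on both pools, an implementation set after the gate sizes had been seen. Cells with at least 2 Xist UMIs and no Y-linked UMI, or at least 1 UMI of 4 Y-linked genes and no Xist, were taken as sexed. Counts have exact Poisson, shares exact Clopper-Pearson and ratios exact conditional binomial 95% intervals. With 1 pool per condition no test across samples was possible. Genes needed 50 UMIs for medians and 200 for fold counts. The genes described one by one were the 12 members with the most UMIs, the 4 highest and 4 lowest pool ratios, and the 4 steepest and 4 flattest from the HSC gate to the MPP gates; others were named after their values were seen. Members and lists were chosen with earlier results of these data known. Calculations used Python 3.11.15, numpy 2.4.6, scipy 1.17.1, pandas 2.3.3, scikit-learn 1.9.0 and matplotlib 3.10.9. The ratio and its interval were checked on simulated counts drawn independently for each gene, and thinning on deposited cells. The simulation did not cover gates, sex calls or the clustering of UMIs in cells. Alternatives covered the cell filter, sex, doublets, pool make-up, scaling, depth, thresholds and gates.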

Additional observations from a re-analysis of the deposited data

Results flagged for a closer look

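The member sum over all LSK cells had opposite directions in the sexes, with a log2 ratio, chelator over control, of -0.129 in Xist-positive cells and 0.132 in Y-positive cells. In the MPP4 gate it was -0.0566 and 0.0312, while the share of member-rich cells there was higher in the chelator pool in both sexes, by 1.56 and 4.81 points. These differences between the sexes were not tested.

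The HSC gate and the MPP gates also lay on opposite sides of 0. Against -0.201 in the HSC gate, the log2 ratio of the member sum was 0.176 in the MPP gates together, 0.604 in MPP1, 0.176 in MPP2, 0.257 in MPP3 and 0.0667 in MPP4. The difference between gates was not tested, since each condition had 1 pool.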

How the results depend on the processing

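No paired analysis was possible because each condition had 1 pool and the labels give no replicate numbers. With 1 pool per condition, the spread between animals is unknown, and intervals cover counting error only. Gate cuts rest on tags of few UMIs. The cause of each shift given here was not tested.

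Over all LSK cells the log2 ratio of the member sum (0.0945) was -0.129 in Xist-positive cells, 0.132 in Y-positive cells, 0.0854 without cells holding both sex markers, 0.00132 with the sexes weighted equally, 0.114 with the control pool's gate shares and 0.133 after thinning to 5000 UMIs. The members' median (0.104) was -0.121 in Xist-positive cells and 0.0046 with the sexes weighted equally. The difference in the share of member-rich cells (2.74 points) was -1.5 points (-5.3 to 2.36) in Xist-positive cells and 5.01 (2.38 to 7.62) in Y-positive cells.

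The log2 fold of the MPP gates over the HSC gate in the control pool (0.841) was 1.04 without cells near a cut, 0.874 with cuts set in each pool, 0.796 in Xist-positive cells and 0.976 after thinning. In the chelator pool (1.22) it was 1.42 without cells near a cut, 1.5 in Xist-positive cells, 1.08 in Y-positive cells and 1.37 after thinning. MPP1 over the HSC gate in the control pool turned to 0.0157 without cells near a cut and 0.0704 with cuts set in each pool. The HSC-gate ratio of the pools (-0.201) was -0.658 in Xist-positive cells, -0.0809 in Y-positive cells and -0.165 after thinning. The MPP ratio (0.176) was 0.044 in Xist-positive cells and 0.229 after thinning, and the MPP4 ratio was -0.0566 in Xist-positive cells. In alternatives chosen after seeing the data, running the mixture to convergence gave MPP folds of 0.691 and 1.2 in the control and chelator pools, an HSC-gate ratio of -0.31 and an MPP ratio of 0.2. Leaving out the 10 HSC-gate cells of each pool with the most member UMIs gave -0.223.

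Of the 22 members described one by one, 19 turned from above to below 0 in Xist-positive cells: Top2a -0.2, Mki67 -0.157, Cks2 -0.0895, Ube2c -0.0745, Cks1b -0.134, Bub3 -0.102, Birc5 -0.115, Cenpa -0.13, Tpx2 -0.231, Ccnb2 -0.0961, Pimreg -0.0282, Cenpf -0.133, Cdc25c -0.197, Ect2 -0.095, Kif23 -0.111, Cdk1 -0.197, Kif11 -0.223, Smc4 -0.118 and Ckap2 -0.22. With the sexes weighted equally, 9 of them turned below 0: Top2a was at -0.0035, Mki67 at -0.00577, Cks1b at -0.0116, Bub3 at -0.00496, Tpx2 at -0.0604, Cdk1 at -0.052, Kif11 at -0.0832, Smc4 at -0.0241 and Ckap2 at -0.0699. Anln and Hjurp were below 0 as reported and in both settings, and Cdkn3 was above 0 in both. In Xist-positive cells the intervals of Pimreg, Cdc25c, Ect2, Kif23, Ccnb2 and Cdkn3 included 0. Those of Cdk1, Kif11, Smc4 and Ckap2 included 0 over all LSK cells.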
